A study of Mus musculus with 4 samples.

Results

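The genes examined here are 10 regulators of p53 and of the mitochondrial route to apoptosis: Trp53, Mdm2, Bax, Bbc3, Pmaip1, Bcl2, Bcl2l1, Bcl2l11, Mcl1 and Apaf1. They were chosen by name, 10 of the 37310 genes and of the 22380 protein-coding genes of GENCODE M1, and all 10 were found in that annotation. Binding of Myc and of its partner Max was mapped by ChIP-Seq in E14 mouse embryonic stem cells (ESCs), with 1 library per ChIP and no replicates, so no value has an error between cultures and no test was made. Tagged Myc (Bio-Myc) was purified on streptavidin beads from a single stable clone of E14, derived from BirA-ES cells, in which the EF1α promoter drove Myc with an N-terminal Biotag. Max was precipitated with an antibody from parental wild-type E14 cells without the tagged Myc. The controls, a mock streptavidin ChIP and an IgG ChIP, are labelled as parental wild type, while the methods give BirA-ES cells without a tagged protein as the reference sample. The controls entered only through the peak calling and were not analysed here on their own. Peak lists hold no expression values, so the cell type could not be checked against marker genes.

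p53, encoded by Trp53, is a transcription factor that is stabilized by DNA damage and other stress and then activates genes for cell cycle arrest and cell death. Mdm2, an E3 ubiquitin ligase, binds p53 and marks it for degradation, and its own gene is a p53 target. Death signals are passed to mitochondria by BH3-only proteins, among them Puma (Bbc3), Noxa (Pmaip1) and Bim (Bcl2l11). They neutralize the pro-survival proteins Bcl2, Bcl-xL (Bcl2l1) and Mcl1, or activate Bax, which permeabilizes the outer mitochondrial membrane. Cytochrome c released in this way assembles with Apaf1 into the apoptosome, which activates caspases. Myc, which with Max binds E-Box elements of the sequence CACGTG, is known to sensitize cells to apoptosis besides driving their growth.

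A Bio-Myc peak lay within 1 kb of an annotated transcription start site (TSS) in 5 of the 10 genes: Trp53, Mdm2, Bbc3, Bcl2l11 and Bax. Max was called there in 7 of the 10, the same 5 and also Pmaip1 and Bcl2l1. Neither peak was found within 1 kb of a TSS of Bcl2, Mcl1 or Apaf1, and no gene had a Bio-Myc peak alone. By role, the genes with both peaks were p53 itself, its inhibitor, the effector Bax and 2 of the 3 BH3-only genes, while none of the 3 pro-survival genes had a Bio-Myc peak in the window. Among protein-coding genes the share within 1 kb was 14.6% for Bio-Myc, 34.8% for Max and 12.7% for both. Over all annotated genes, the shares were 10% for Bio-Myc and 23.7% for Max. Within 5 kb of a TSS, the counts among the 10 genes were still 5 for Bio-Myc and 7 for Max, against 16.6% and 38.6% of the protein-coding genes.

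The promoters of these genes were rich in CpG, which bears on the comparison with all genes. A promoter was counted as CpG-rich when the 500 bp to either side of its outermost TSS had a GC content of at least 50% and a ratio of observed to expected CpG of at least 0.6. This held for 9 of the 10 genes and for 44.1% of the protein-coding genes. Trp53 was the exception, with 51.9% GC and a ratio of 0.55. Among the 9880 protein-coding genes with a CpG-rich promoter, the shares within 1 kb were 27.5% for Bio-Myc and 60.6% for Max, so the 7 of 10 genes with a Max peak were near that background. The 5 of 10 genes with a Bio-Myc peak stood above 27.5%, which is nearer to them than the 14.6% of all protein-coding genes. Trp53 is in both counts although its promoter was not CpG-rich. The part of CpG content in the counts was not tested.

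**Figure D1:**
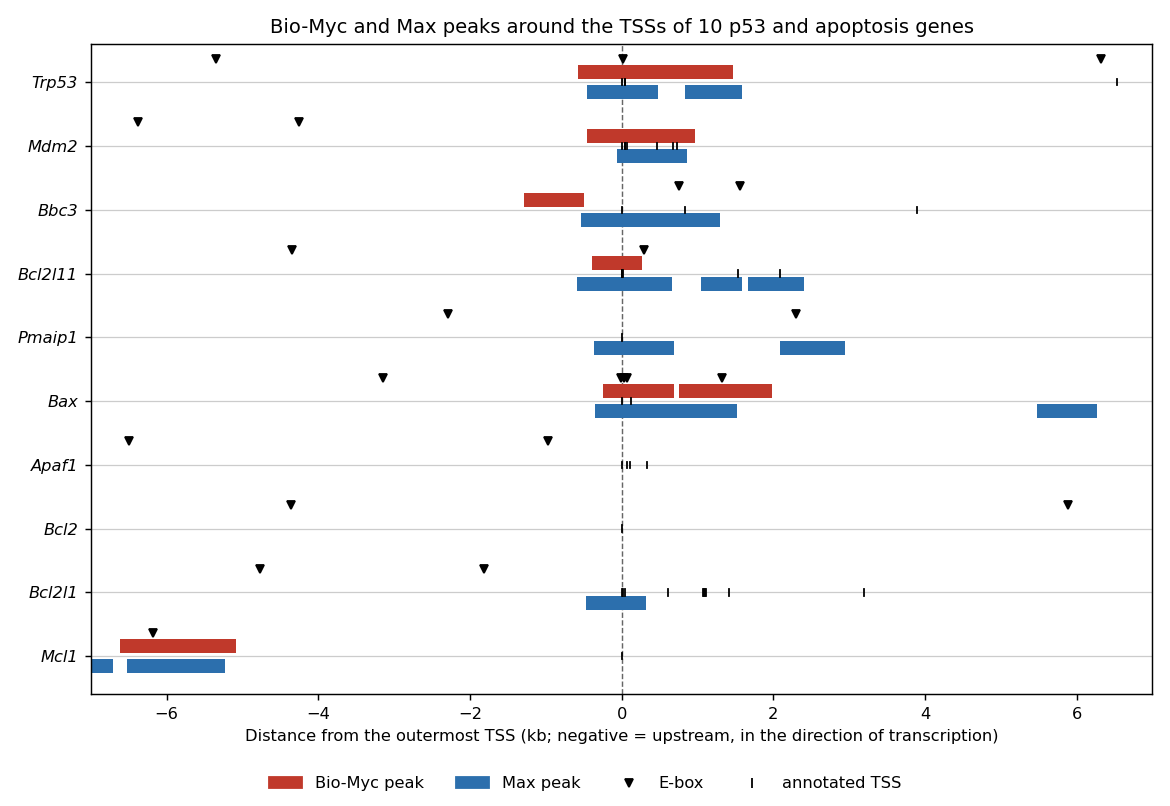
Peaks of Bio-Myc (red) and Max (blue) in the 7 kb to either side of the outermost TSS of each of the 10 genes, with distance in kb on the horizontal axis, annotated TSSs as black ticks and E-Boxes as triangles. At Bax, 3 E-Boxes sit at the TSS under peaks of both lists, at Bbc3 the Bio-Myc peak ends 502 bp upstream of the TSS, and at Mcl1 the nearest peaks of both lists begin over 5 kb upstream.

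The sequences that carry these peaks are given first for the E-Boxes, in mm9 and on the strand of each gene, with the E-Box in capitals. Bax, which scored highest of the 10 genes in both lists, held 3 E-Boxes within 79 bp around its TSS and another in an intron. Below are the stretch directly upstream of the outermost TSS (chr7:52722269-52722388), the E-Boxes of the 5′ UTR (chr7:52722221-52722240 and chr7:52722192-52722211) and that of the intron (chr7:52720934-52720963), all on the minus strand.
Bax, upstream of the TSS: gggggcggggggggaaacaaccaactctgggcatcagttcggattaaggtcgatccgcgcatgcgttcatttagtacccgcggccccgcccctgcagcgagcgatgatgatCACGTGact
Bax, first E-Box of the 5′ UTR: gggcaccCACGTGagggccg
Bax, second E-Box of the 5′ UTR: gatcagtCACGTGaccgtgg
Bax, intron: gacccagctctcCACGTGtagatatttagg

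The E-Boxes of Trp53 (chr11:69393864-69393883, plus strand, 5′ UTR), Bbc3 (chr7:16895704-16895733, plus strand, intron) and Bcl2l11 (chr2:127952061-127952090, plus strand, intron) are shown because they fell differently under the peaks of the lists. That of Trp53 lay under the peaks of both, and those of Bbc3 and Bcl2l11 under the Max peaks alone.
Trp53: cccctccCACGTGctcaccc
Bbc3: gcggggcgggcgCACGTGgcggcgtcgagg
Bcl2l11: tctctggtgtcgCACGTGcgggtggaggca

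Mdm2 had peaks of both lists over its TSS without a CACGTG. The 120 bases directly upstream of its outermost TSS (chr10:117147815-117147934, minus strand) lay within the Bio-Myc peak and are shown with each CG in capitals. This stretch had 21 CG dinucleotides and 80% GC, against 12 and 61.7% in the Bax stretch of the same length above.
Mdm2, upstream of the TSS: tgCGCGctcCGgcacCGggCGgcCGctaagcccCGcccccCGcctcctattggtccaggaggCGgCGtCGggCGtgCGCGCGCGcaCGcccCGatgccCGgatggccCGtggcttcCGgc

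Trp53 (ENSMUSG00000059552.6, chr11:69393861-69405375, plus strand) was marked in both lists. Its Bio-Myc peak, chr11:69393284-69395328, scored 89.0, and its Max peak, chr11:69393410-69394336, scored 364. The score is -10 times the log10 of the p-value that MACS gave the peak, so it ranks peaks by significance against the control and not by fold enrichment, and the lists end at 80. Both peaks covered the outermost TSS and overlapped 5′ UTR and intron sequence. The Bio-Myc score was near the bottom of its list, with 13.3% of the peaks below it, and the Max score was in the upper part, with 85.1% below it. The Bio-Myc peak was also broad. At 2045 bp it was wider than 97.5% of its list and also overlapped, by 629 bp, a second Max peak in an intron (chr11:69394700-69395454), which scored 93.6. The E-Box shown above began 10 bp downstream of the TSS, at the centre of the first Max peak and 432 bp from that of the Bio-Myc peak. A TSS of Wrap53, a divergently transcribed gene for a protein of Cajal bodies and telomerase, lay 104 bp away under the same peaks, so they cannot be assigned to one gene or the other. Among the 5 genes with a Bio-Myc peak within 1 kb, only Trp53 had such a neighbour within 1 kb of the peak.

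Mdm2 (ENSMUSG00000020184.8, chr10:117125944-117147814, minus strand) showed the opposite order of scores. Bio-Myc scored 249 here (chr10:117146847-117148270), above 84.1% of its list, whereas Max scored 124 (chr10:117146946-117147873), above 33.6%. The Max peak lay wholly within the Bio-Myc peak, and both covered the outermost TSS and overlapped 5′ UTR and intron sequence. Neither peak held a CACGTG or a CACGCG, a related sequence that was searched on both strands.

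Bax (ENSMUSG00000003873.9, chr7:52717065-52722268, minus strand) had the highest score of the 10 genes in both lists. Bio-Myc scored 1163 at chr7:52721577-52722510, rank 12 of 3962 peaks, and Max scored 919.8 at chr7:52720753-52722614, rank 210 of 11570. The next Bio-Myc score among the 10 genes was the 249 of Mdm2, and the next Max score was the 389 of Bbc3. The Bio-Myc peak covered both annotated TSSs, the 5′ UTR and part of the coding sequence, and the E-Boxes at the TSS were between 158 and 231 bp from its centre. The first base of these E-Boxes lay 9 bp upstream and 35 and 64 bp downstream of the outermost TSS. Of the 2900 Bio-Myc peaks at protein-coding promoters, 3.72% held at least 3 E-Boxes, as did 1.1% of the 22380 regions within 1 kb of the outermost TSS of a protein-coding gene. A second Bio-Myc peak (chr7:52720288-52721515, score 116) held the intronic E-Box, 47 bp from its centre. The Max peak, 1862 bp wide, overlapped both Bio-Myc peaks and held all 4 E-Boxes, which were between 518 and 735 bp from its centre.

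The BH3-only genes differed from each other. Bbc3 (ENSMUSG00000002083.6, chr7:16894965-16903554, plus strand) was covered at its TSS by Max (chr7:16894435-16896261, score 389), while Bio-Myc (chr7:16893676-16894463, score 104) ended 502 bp upstream of the TSS. The peaks shared only 29 bp, which is 3.7% of the shorter one, and with a window of 500 bp Bbc3 would not count as bound by Bio-Myc. The E-Box was under the Max peak, 751 bp downstream of the outermost TSS and 370 bp from the centre of the peak. It was 88 bp upstream of another annotated TSS of Bbc3, which the Max peak also covered. Bcl2l11 (ENSMUSG00000027381.10, chr2:127951774-127988283, plus strand) was covered at its TSS by both, with a Bio-Myc score of 97.5 (chr2:127951383-127952046) and a Max score of 264 (chr2:127951190-127952437). The Bio-Myc peak, 664 bp wide, lay within the Max peak and ended short of the E-Box, which was 299 bp downstream of the TSS. Further Max peaks at chr2:127952818-127953364 and chr2:127953437-127954180, which scored 113 and 111, followed within the gene. Each covered another annotated TSS of Bcl2l11, and no Bio-Myc peak overlapped them.

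Pmaip1 (ENSMUSG00000024521.7, chr18:66618258-66625204, plus strand) was covered at its only annotated TSS by Max (chr18:66617895-66618953), which scored 184, above 57.8% of the list. A second Max peak (chr18:66620348-66621204), 2090 bp downstream of the TSS, scored 227 and held 1 E-Box. Bio-Myc was not called nearer than 567.5 kb upstream, the longest such distance of the 10 genes. Max thus covered a TSS of all 3 BH3-only genes, and Bio-Myc a TSS of Bcl2l11 alone. No share of all genes is given for peaks that cover a TSS. Within 1 kb, 60.6% of the protein-coding genes with a CpG-rich promoter, which all 3 genes had, held a Max peak and 27.5% a Bio-Myc peak. With 3 genes, no difference from these shares can be read.

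Of the 3 pro-survival genes, 1 had a Max peak and 0 a Bio-Myc peak within 1 kb. The shares were 34.8% and 14.6% among protein-coding genes. They were 60.6% and 27.5% among those with a CpG-rich promoter, which all 3 genes had. So few genes cannot be told apart from either background. Bcl2l1 (ENSMUSG00000007659.11, chr2:152593052-152657464, minus strand) was covered at its outermost TSS by Max (chr2:152657140-152657936), which scored 96.4, above 15.8% of the list, and without a CACGTG. Further Max peaks lay in its introns, 28.2 kb and 31.8 kb downstream of the outermost TSS, with scores of 106 and 82.7. The nearest Bio-Myc peak, 15.9 kb upstream with a score of 201, covered a TSS of Tpx2, which encodes a spindle assembly factor. For Bcl2 (ENSMUSG00000057329.6, chr1:108434755-108610851, minus strand), no peak of either list touched the gene or the 20 kb around it. Its nearest peaks, 44.8 kb upstream for Bio-Myc and 44.9 kb for Max, covered a TSS of Kdsr, an enzyme of sphingolipid synthesis.

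Mcl1 (ENSMUSG00000038612.9, chr3:95462643-95467099, plus strand) lay just outside the wider window. Its Bio-Myc peak (chr3:95456024-95457562, score 86.5) ended 5081 bp from the only TSS, and its Max peak (chr3:95456115-95457413, score 229) ended 5230 bp from it, both on the upstream side. No TSS of another protein-coding gene was nearer to these peaks. The Max peak lay within the Bio-Myc peak, and both held 1 E-Box, 6184 bp upstream of the TSS, shown here with 12 bases to either side (chr3:95456447-95456476, plus strand).
Mcl1, upstream peak: aatcccagcaccCACGTGactgctcaggtc

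Apaf1 (ENSMUSG00000019979.6, chr10:90452056-90545515, minus strand) had no peak of either list in the gene, and its only peak within 20 kb of the gene was a Max peak beyond the 3′ end (chr10:90432450-90433131), which scored 101.55. This peak was 21.2 kb from the nearest annotated TSS, that of a short transcript with a retained intron, and 112.4 kb from the outermost TSS. The nearest Bio-Myc peak, 87.5 kb upstream, covered a TSS of Tmpo, a gene for proteins of the nuclear lamina. Apaf1 was the only one of the genes without a peak near the TSS to hold an E-Box within 1 kb of its outermost TSS, 977 bp upstream. It is shown for comparison with the E-Boxes under peaks (chr10:90546475-90546504, minus strand).
Apaf1: cgcacctgcacaCACGTGcacaaatacact

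**Figure D2:**
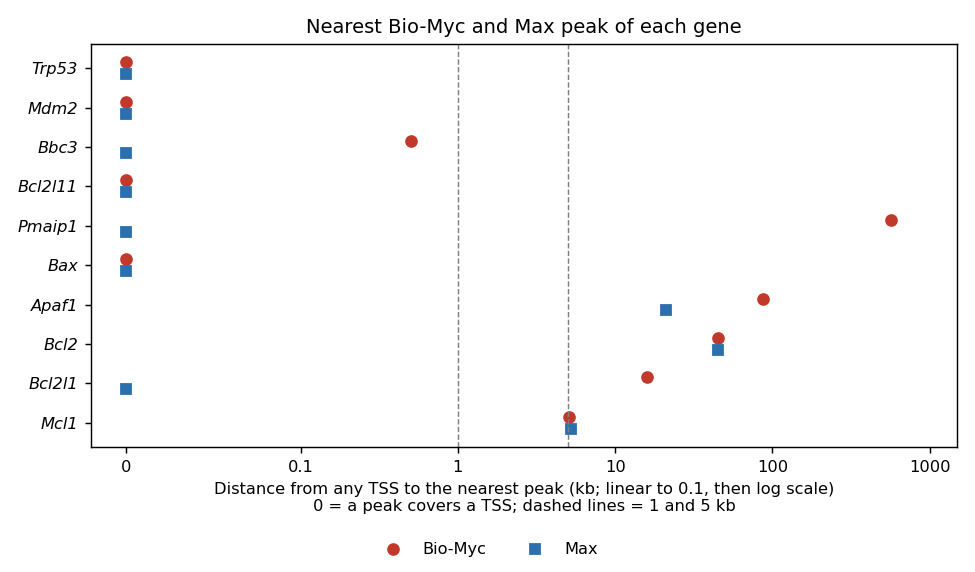
Distance in kb from the nearest annotated TSS of each gene to the nearest Bio-Myc peak (red circles) and Max peak (blue squares), on an axis that is linear to 0.1 kb and logarithmic beyond, with 0 for a peak over a TSS. Both peaks covered a TSS in 4 genes, the Bio-Myc peak of Bbc3 was 0.5 kb away, and the peaks of Mcl1 were 5.1 and 5.2 kb away, just past the dashed line at 5 kb.

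E-Boxes were counted under the highest-scoring peak within 1 kb of a TSS of each gene. CACGTG occurred in 2 of the 5 Bio-Myc peaks (Trp53 and Bax) and in 4 of the 7 Max peaks (Trp53, Bbc3, Bcl2l11 and Bax). Of all Bio-Myc peaks at protein-coding promoters 49.6% held one, and so did 49.6% of those with the widths of the members' peaks, 664 to 2045 bp. The same shares for Max were 36.6% and, at widths of 797 to 1862 bp, 42.8%. Without regard to peaks, 5 of the 10 genes had a CACGTG within 1 kb of the outermost TSS, against 27.8% of the protein-coding genes. The share among genes with a CpG-rich promoter, which 9 of the 10 genes had, is not given for this count. The related sequence CACGCG, on either strand, occurred in 2 of the 5 Bio-Myc peaks (Bcl2l11 and Bax) and in 4 of the 7 Max peaks (Bbc3, Bcl2l11, Bax and Bcl2l1). The shares among the peaks at protein-coding promoters were 55.8% for Bio-Myc and 48.5% for Max, and 56.3% and 55.4% at the same widths. A match is a matter of letters only and does not show that the site was bound.

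The order of the genes differed between the lists. By Bio-Myc score it was Bax, Mdm2, Bbc3, Bcl2l11 and Trp53, with scores of 1163, 249, 104, 97.5 and 89.0. By Max score it was Bax, Bbc3, Trp53, Bcl2l11, Pmaip1, Mdm2 and Bcl2l1, with scores of 919.8, 389, 364, 264, 184, 124 and 96.4. The depth of each library bears on its scores and is not held in the lists, and without replicates neighbours in either order cannot be told apart beyond their spread. The standing of each peak within its own list was therefore compared, as the percentage of peaks with a lower score. Across the 2967 Bio-Myc peaks that overlapped a Max peak, each paired with the highest-scoring such peak, Spearman's rho of the scores was 0.37 and the standing in the Bio-Myc list minus that in the Max list had a median of -9.8 points. For Trp53 this difference was -71.8 points, lower than in all but 4.15% of the pairs, and for Mdm2 it was 50.6 points, exceeded in 2.26% of the pairs. It was -55.5 points for Bbc3, whose peaks shared 29 bp, -50.5 for Bcl2l11 and 1.5 for Bax. Bax thus stood near the top of both lists and Mdm2 high in the Bio-Myc list alone. Trp53, Bbc3 and Bcl2l11 stood higher in the Max list than in the Bio-Myc list, above 85.1%, 86.9% and 74.2% of the Max peaks. The lists also differ in capture (streptavidin beads or an antibody), cells and control, and the part of each in these differences was not tested.

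**Figure D3:**
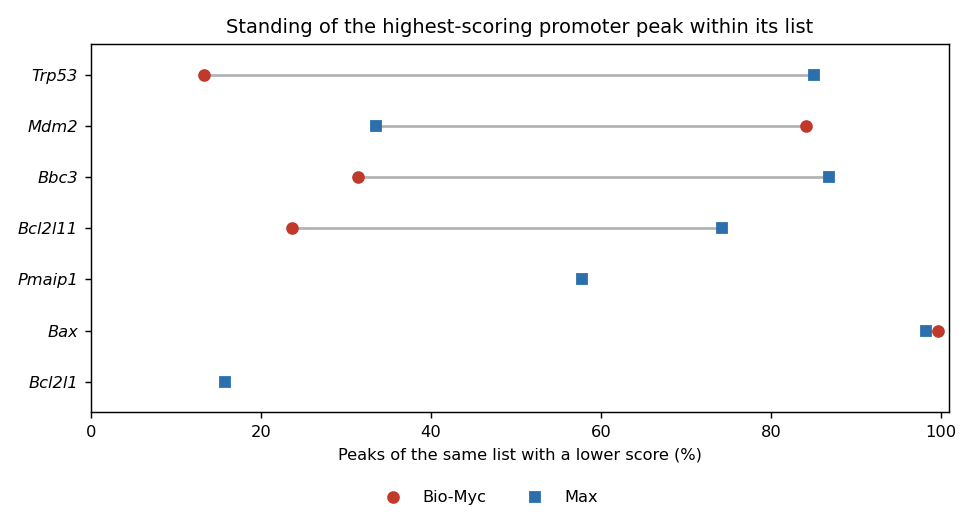
Percentage of peaks of the same list with a lower score than the highest-scoring peak within 1 kb of a TSS, for Bio-Myc (red circles) and Max (blue squares), with a grey line joining the values of 1 gene. Bax is at 99.7% and 98.2%, Mdm2 at 84.1% and 33.6%, and Trp53 at 13.3% and 85.1%, while Pmaip1 and Bcl2l1 have a Max value only.

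The other genes of the pathways, a list of 53 in 8 groups, were examined in the same way. Bio-Myc reached 10 of them within 1 kb and Max reached 31, with both at 9. These are 18.9% and 58.5% of the list, and 67.9% of the list had a CpG-rich promoter, so the shares are read against both backgrounds given above, 14.6% and 34.8% for protein-coding genes and 27.5% and 60.6% for those with CpG-rich promoters. Among the 11 genes of the p53 family and its control, such as damage kinases, Bio-Myc marked 4 and Max marked 7. Atm, the kinase that signals DNA breaks to p53, had a Bio-Myc score of 275 and a Max score of 276. Trp53bp1, a mediator of DNA break repair, was covered at a TSS by Bio-Myc, scoring 175, but lay 37.4 kb from the closest Max call, and was the only one of the 53 with a Bio-Myc peak alone. Among the 13 p53 targets, 4 had both peaks and 5 a Max peak alone. Zmat3, an RNA-binding protein induced by p53, had the highest scores of the list in both, 749 and 449.5, and Tnfrsf10b, a death receptor, had scores of 242 and 117.

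The groups that act at the mitochondrion and below it hold 2 to 7 genes each, too few to read a difference from the backgrounds of 34.8% to 60.6% for Max and 14.6% to 27.5% for Bio-Myc, and differences between groups were not tested. Of the 7 further BH3-only genes, 5 had a Max peak and 0 a Bio-Myc peak within 1 kb. Neither peak was found at the 5 further pro-survival genes (Bcl2l2, Bcl2l10, Bcl2a1a, Bcl2a1b and Bcl2a1d). Of these, the 3 Bcl2a1 genes are near-identical copies, where mapping of unique hits alone can leave out reads. Bok, an effector related to Bax, scored 369 for Max and lay 115.8 kb from the closest Bio-Myc call. Among the 5 genes for proteins released from mitochondria, 4 had a Max peak and 1, Diablo, an inhibitor of IAP proteins, had both, with scores of 131 and 428. Of the 6 caspases, 4 had a Max peak and 1 both.

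**Figure D4:**
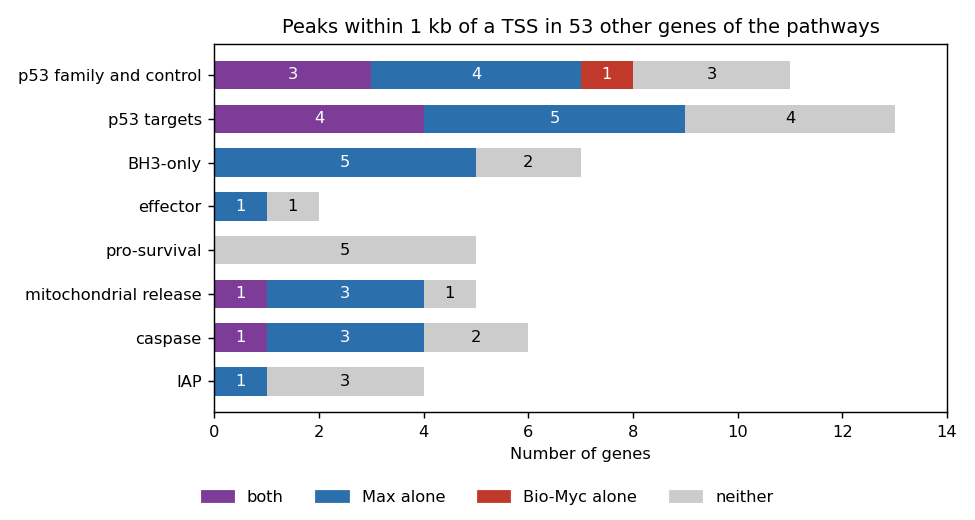
Number of genes, on the horizontal axis, with peaks of both lists, Max alone, Bio-Myc alone or neither within 1 kb of a TSS, for the 53 other genes in 8 groups. No gene of the BH3-only, effector, pro-survival and IAP groups, of 2 to 7 genes each, had a Bio-Myc peak in this window, against 14.6% of protein-coding genes. Within 5 kb, 1 effector and 1 IAP gene had one. The pro-survival group had no Max peak either, against 34.8% of protein-coding genes. With CpG-rich promoters the shares were 27.5% for Bio-Myc and 60.6% for Max. The groups are too small to read a difference from these shares, and the Bcl2a1 genes are near-identical copies that unique mapping can miss.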

How the data were processed

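ChIP-Seq libraries of Bio-Myc and Max were analysed as deposited peak lists, 1 library each. Per the labels and methods, the reads, processed with CASAVA 1.8, were aligned by Bowtie 0.12.7 to mm9, keeping reads with a single hit and at most 2 mismatches, duplicates were collapsed, and MACS 1.4.1 called peaks against the mock or IgG ChIP at 1e-08. The score that the authors deposited for each peak is the negative log10 of its MACS p-value times 10. A gene without a peak is one without a peak at that limit, and unique mapping leaves out repeated sequence. The number of reads is unknown.

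Coordinates were made 1-based and set beside the NCBIM37 sequence, the assembly of mm9, and GENCODE M1 (Ensembl 65). 0 peaks ran past the end of a chromosome. A peak counted as within 1 kb or 5 kb when any part of it lay within that distance of any annotated TSS. The distance of an E-Box is that of its first base on the strand of the gene. The members and lists were chosen with earlier results of these data known. All 10 members are described. Of the other 53 genes, those named are the 3 with the highest Bio-Myc and the 3 with the highest Max score, and those with a Bio-Myc peak but no Max peak. One gene that this rule selects is not reported here. Bok, the genes named in Other observations, the 5 pro-survival genes, Tpx2, Kdsr and Tmpo were named after their values were seen. Alternatives were other windows, TSS sets, score limits, overlap rules, peak centres, a second sequence and other gene backgrounds. Distance and motif steps were tested on artificial data, and 10 of 10 returned the known answers. Python 3.11.15, numpy 2.4.6, scipy 1.17.1 and matplotlib 3.10.9 were used.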

Additional observations from a re-analysis of the deposited data

How the results depend on the processing

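The number of the 10 genes with a Bio-Myc peak was 4 or 5 under the other windows and TSS sets and with the limit at 1e-09, where Trp53 was lost. At 1e-15 it fell to 2 (Mdm2 and Bax), and the number with both peaks to 1 (Bax). The number with a Max peak was 7 under all windows and TSS sets and 5 at 1e-15, and moved to 4 when the Max list was cut to its 3962 highest scores. Requiring the peaks to overlap by 50% of the shorter one removed Bbc3 from the genes with both. Within the central 500 bp of the peaks, a CACGTG occurred in 1 of 5 genes for Bio-Myc and 1 of 7 for Max, against 35.3% and 28.1% of the peaks at protein-coding promoters, and within the central 200 bp in 0 of 5 and 1 of 7, against 18% and 17.2%. Among the 53 other genes, the number with a Bio-Myc peak fell to 5 at 1e-15. No share of all genes is given at the stricter limits or for the cut Max list. The counts there therefore cannot be set against the shares above, which hold at 1e-08. Leaving out chromosome 8, which held 1357 of the Max peaks, the share of all genes with a Max peak was 22.8% in place of 23.7%. With 1 library per ChIP no replicate could be left out, and an unknown depth limits any reading of a missing peak.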

Other observations

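Bio-Myc was called between 1 and 5 kb from a TSS and not nearer in 4 of the 53 other genes (7.55%), a list chosen with earlier results known, and in 445 of the 22380 protein-coding genes (1.99%), and this difference was not tested. Birc2, an inhibitor of apoptosis, had peaks of both lists on its upstream side, Bio-Myc at -1276 bp and Max at -1325 bp, where the minus sign stands for upstream. For Sesn2, a p53 target, the distance was -2834 bp for Bio-Myc, and Max covered the TSS. For Mdm4, an inhibitor of p53 related to Mdm2, Bio-Myc was 3374 bp downstream, and Max again covered a TSS. For Bak1, the effector closest to Bax, both were downstream, Bio-Myc at 4132 bp and Max at 4210 bp. TSSs of other genes near these peaks are not given here, so the peaks cannot be assigned to the genes named.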
